A study of Homo sapiens with 6 samples.

Results

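The giant coding regions described here are the gene models with a listed coding length of 2000 or more. The lists carry UCSC-style transcript identifiers, a length and a count of ribosome footprints per model. The unit of the length is not stated, and the lengths divide by 3 with remainders of 0, 1 and 2 in 33.7%, 33.4% and 32.9% of cases, so they were taken as codons and are called length units below. Of 82960 listed rows, 897 had such a length. Rows with identical counts in every library were merged into 1 model, and a model was kept where its count averaged 20 or more over the 6 libraries. This left 538 giant models of 31237 tested models of any length, and 104 further giant models with any count fell under the count minimum. The listed lengths ran from 2002 to 14498, with a median of 2489. Among the 538, 154 models reached 3000 and 65 reached 4000.

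The study used ribosome profiling, which sequences the mRNA fragments that ribosomes protect from RNase I, in HEK293T-REx cells, a human embryonic kidney line with a tetracycline repressor. RocA (rocaglamide A, a plant compound that clamps the RNA helicase eIF4A onto mRNA) was compared with its solvent DMSO in a naive line and in a line called aglaiacized. The name refers to Aglaia, the plant genus that makes rocaglates and whose own eIF4A resists them. The allele carried by the aglaiacized line, whether it is 1 clone, and the dose and time of RocA were not stated in the labels. The 4 groups were naive cells in DMSO (2 libraries), naive cells in RocA (1 library), aglaiacized cells in DMSO (2 libraries) and aglaiacized cells in RocA (1 library). All were HEK293T-REx cells.

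In cap-dependent initiation, eIF4A unwinds the mRNA leader so that the small ribosomal subunit can scan to the start codon. A ribosome then has to travel the whole reading frame, so a giant frame holds ribosomes for long after each initiation, and footprints near its far end come from initiation that took place well before harvest. Giant frames encode, among others, cytoskeletal linkers, motor and adhesion proteins, large enzymes and ubiquitin ligases. The tables used here pair none of the 897 giant identifiers with a gene name, a position or a sequence, so most models are named below by listed length and no sequence is shown.

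Each library held between 9546180 and 33640289 counts over all listed rows, and the RocA libraries were the shallowest (9546180 and 9727502). Footprints were counted without matched RNA, so a change can reflect the amount of mRNA or its translation. The labels leave unsaid whether the DMSO libraries of a line are separate cultures. The spread behind the p-values is that between libraries and may be technical. Each RocA group has 1 library, whose spread was taken to be that of the DMSO pairs. Within those pairs the giant models differed by more than counting noise, with a chi-square per degree of freedom of 1.885 in naive and 4.98 in aglaiacized cells. Fold changes are on the scale of TMM-normalised libraries, which sets the middle of the expression range near 0. Under plain scaling to total counts the median of all tested models moves from −0.10 to −0.68 (log2) for the naive RocA response. The aglaiacized one moves from −0.04 to −0.34, and the difference between the responses from 0.00 to 0.28. Giant models are therefore set beside all tested models throughout.

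Giant models were moderately covered. Their median mean count was 284, against 162.5 over all tested models, 445 of them had a mean count of at least 100, and none had a count of 0 in any library. Per length unit they were thinly occupied. The minimum was on counts and not on counts per length unit, so longer models could enter at a lower density. Their median level was 6.33 and 6.34 CPM (counts per 1e6 scaled counts) per 1000 length units in the naive DMSO libraries, against 20.8 and 20.7 for models below the length limit. The aglaiacized DMSO libraries gave 5.88 and 5.39, against 21.0 and 21.0. In RocA the giant median was 4.29 in naive and 5.52 in aglaiacized cells, against 19.2 and 19.1. The giant median was thus lowest, in relation to shorter models, in the naive RocA library (a ratio of 0.224), while the other 5 libraries lay between 0.257 and 0.306.

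The 538 models are not independent, because overlapping transcripts can share reads. Counting once those whose counts lay within 10% or 3 counts of each other in all 6 libraries left 364 sets, of which 245 held 1 model and 119 several, up to 9. A second view gives a like number. Neighbouring rows formed 352 runs, and within the 121 runs of several models the log2 response to RocA in naive cells ranged by a median of only 0.03 and at most 0.71. In 7 of those runs the models received different calls, and in 0 runs opposite ones.

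The share of all footprints on giant models was lowest in naive cells in RocA. It was 2.06% (Wilson 95% interval 2.05% to 2.07%) and 2.03% in the naive DMSO libraries and 1.60% (1.59% to 1.61%) in the naive RocA library. In aglaiacized cells it was 1.82% and 1.79% in DMSO and 1.74% (1.73% to 1.75%) in RocA. These intervals cover counting error only. The RocA library lay below both DMSO libraries in each line. RocA minus the DMSO mean was −0.447 percentage points in naive and −0.069 in aglaiacized cells. An exact two-sided permutation test within lines gave p = 0.111, the smallest value that its 9 arrangements allow, and within 1 line no test could go below 0.333. The same test on the giant median log2 CPM minus that of all tested models gave p = 0.556, exact, with RocA minus DMSO at −0.243 in naive and 0.098 in aglaiacized cells. Leaving out the 10 giant models with most counts kept the order of the naive groups, at 1.65%, 1.63% and 1.19%, with 1.44%, 1.40% and 1.28% in aglaiacized cells.

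**Figure D1:**
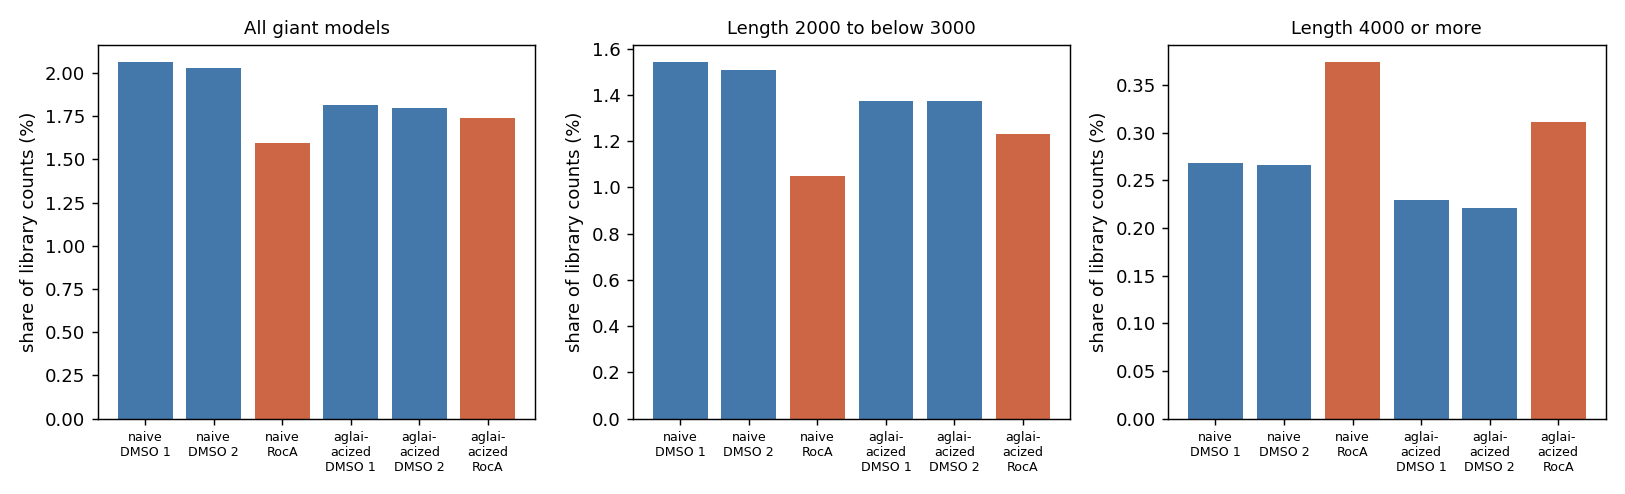
Share of each library's counts (y axis, percent) on all 538 giant models, on those of length 2000 to below 3000 and on those of length 4000 or more, with 1 bar per library (blue, DMSO; orange, RocA). The naive RocA bar is lowest for all giant models (1.60%) and for length 2000 to below 3000 (1.05%), and highest for length 4000 or more (0.374%).

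The shares divided by length. Models of length 2000 to below 3000 held 1.54% and 1.51% of counts in naive DMSO and 1.05% in naive RocA. Those of length 3000 to below 4000 held 0.252% and 0.252%, then 0.175%. The summed share of models of length 4000 or more went the other way, from 0.268% and 0.266% to 0.374% in RocA. In aglaiacized cells this last share was 0.229% and 0.221% in DMSO and 0.311% in RocA. A pair of near-identical models of length 4118 and 4087 carried between 41.7% and 54.4% of the counts of that longest group. Without the pair its share was 0.156%, 0.155% and 0.170% in naive cells (DMSO, DMSO, RocA). In aglaiacized cells it was 0.126%, 0.124% and 0.147%, so the sum was still highest in RocA in each line. Most single models did not follow this sum in naive cells. Under total-count scaling the naive RocA median of the 63 others was −0.48. Of these, 14 were called higher (22.2%, against 18.4% of all tested models) and 32 lower (50.8%, against 53.2%). In aglaiacized RocA the median was 0.10, with 20 higher (31.7%, against 13.8%) and 11 lower (17.5%, against 38.0%).

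In naive cells more giant models were lower than higher in RocA. With edgeR's quasi-likelihood test and a Benjamini-Hochberg adjusted p under 0.05 over all tested models, 258 of 538 giant models (48.0%) fell and 146 (27.1%) rose. Over all tested models 33.9% fell and 32.4% rose, and 66.3% were called in either direction against 75.1% of giant models. The median log2 fold change was −0.36 for giant models and −0.10 for all tested models. A fall of at least 2-fold was called for 155 giant models (28.8%, against 24.0% of all), and a rise of at least 2-fold for 70 (13.0%, against 19.4%). At 4-fold, 46 fell (8.55%, against 8.81%) and 17 rose (3.16%, against 2.97%), shares near those of all tested models. Against each naive DMSO library alone the giant median was −0.38 and −0.36, while the 2 DMSO libraries differed from each other by a median of 0.02. Under total-count scaling 367 giant models fell (68.2%, against 53.2% of all) and 71 rose (13.2%, against 18.4%).

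The models that rose most in naive RocA sit in 1 run of 6 adjacent models of length 2400 to 2624, whose log2 fold changes of 3.35 to 3.40 may come from shared reads. The model uc010hne.2 (length 2624) stood at 10.2 and 8.64 CPM in naive DMSO and 99.0 CPM in naive RocA. In aglaiacized cells it was at 4.07 and 4.43 CPM in DMSO and 17.9 CPM in RocA. The gap between the naive libraries was a condition for naming the model. In aglaiacized cells, which the choice did not use, the RocA library also lay above both DMSO libraries. The log2 fold change was 3.40 ± 0.14 (SE) in naive and 2.07 ± 0.20 in aglaiacized cells, with edgeR adjusted p of 6.47e-40 and 1.54e-15. The response was smaller in aglaiacized cells by 1.33 ± 0.24 (adjusted p = 8.68e-06, edgeR). The naive value, for which the model was chosen, enters this difference, so the choice favours a smaller aglaiacized response. In DMSO the model was also lower in aglaiacized than in naive cells, with a log2 fold change of −1.14. Its neighbour uc003djl.2 (length 2413), another model of the run, followed the same pattern, from 9.11 and 7.65 CPM in naive DMSO to 86.2 CPM in RocA and from 3.42 and 3.75 CPM to 15.6 CPM in aglaiacized cells.

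The strongest fall was that of uc003eor.3 (length 2234). It gave 236 and 269 counts in the naive DMSO libraries and 4 in naive RocA, or 11.4, 12.7 and 0.647 CPM. In aglaiacized cells it kept more of its footprints in RocA, with 11.6 and 10.4 CPM in DMSO and 4.11 CPM in RocA. The log2 fold changes were −4.20 ± 0.44 and −1.42 ± 0.27, and their difference was 2.79 ± 0.64 (edgeR adjusted p = 4.34e-04). The second was uc004dfc.3 (length 2545), which rested on far more counts. It had 3606 and 3823 counts in naive DMSO against 68 in RocA (174, 180 and 10.996 CPM), and 107, 97.1 and 18.1 CPM in aglaiacized cells. Its log2 fold changes were −4.01 ± 0.17 and −2.50 ± 0.15. The response was thus weaker by 1.51 ± 0.24 in aglaiacized cells (edgeR adjusted p = 4.64e-07), although the model was also lower there in DMSO (−0.80). Both models were chosen for their naive falls, which enter these differences, so the choice favours a weaker response in aglaiacized cells.

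In aglaiacized cells RocA moved fewer giant models, and which direction led depended on the settings. The same test called 157 higher (29.2%) and 125 lower (23.2%), where 24.5% of all tested models were higher and 24.3% lower. Either call was made for 52.4% of giant models and 48.9% of all. The median was 0.05 for giant models and −0.04 for all tested models. A rise of at least 2-fold was called for 54 giant models (10.04%, against 5.05% of all) and a fall of that size for 63 (11.7%, against 13.0%). Against each DMSO library alone the giant median was 0.02 and 0.07, and the 2 aglaiacized DMSO libraries differed by a median of 0.05. Set against all tested models, the giant median lay 0.065 and 0.10 higher in RocA than in the DMSO libraries, and 0.049 higher in 1 DMSO library than in the other. Under total-count scaling the split turned to 99 higher (18.4%, against 13.8% of all) and 204 lower (37.9%, against 38.0%), with a giant median of −0.25 against −0.34 over all.

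The difference between the 2 responses was tested directly. It was higher in aglaiacized than in naive cells for 159 giant models (29.6%) and lower for 39 (7.25%), where 11.3% of all tested models were higher and 14.3% lower. In either direction this is 36.8% of giant models against 25.6% of all. By 2-fold or more, the call was upward for 90 giant models (16.7%, against 6.52% of all) and downward for 16 (2.97%, against 6.42%). The median difference was 0.33 for giant models and 0.00 for all tested models. The difference shares its DMSO libraries with the comparison of the lines in DMSO below, so those results are coupled. The aglaiacized value was above the naive one for 373 of 538 giant models (69.3%, against 50.1% of all tested models). With DESeq2, 98 of the differences were called (18.2% of giant models, against 12.6% of all) in place of 198. Counting near-identical models once left 126 called sets of 364 (34.6%, against 25.6%). Under total-count scaling 229 were higher (42.6%, against 21.2% of all) and 22 lower (4.09%, against 7.9%).

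**Figure D2:**
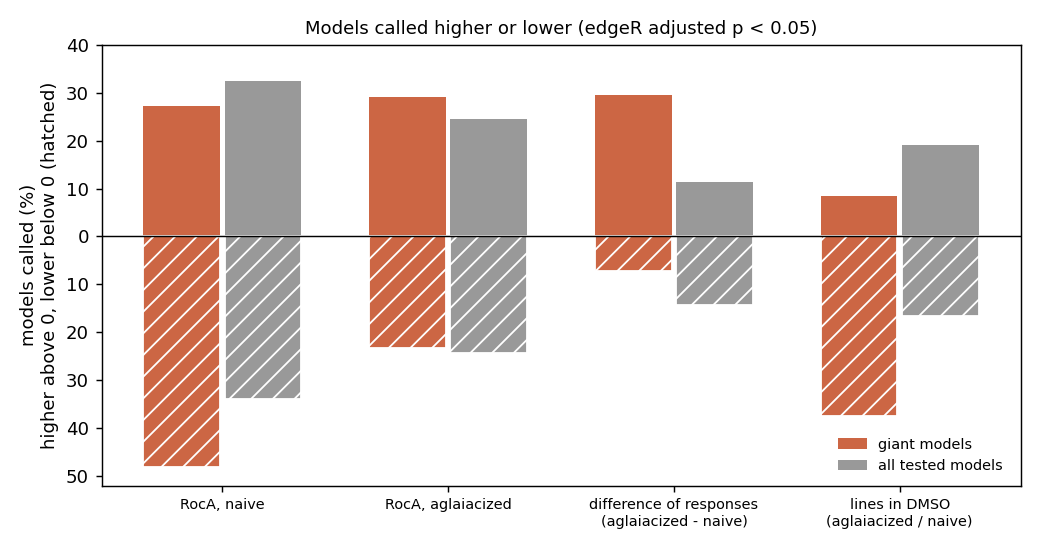
Percent of models called higher (above 0) and lower (below 0, hatched) for the RocA response in each line, the difference of those responses and the lines in DMSO, in giant models (orange, n = 538) and all tested models (grey, n = 31237). Giant models were called lower more often in naive RocA (48.0% against 33.9%) and in the aglaiacized line in DMSO (37.4% against 16.6%), and higher more often for the difference (29.6% against 11.3%).

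Across the 538 models the 2 responses, which share no library, followed each other with Pearson's r of 0.82 and Spearman's rho of 0.81. This is a description, since overlapping models share reads. The sign was the same for 423 models (78.6%, against 82.1% of all tested models) and the size was larger in naive cells for 399 (74.2%, against 74.3%). Of the 258 that fell in naive cells, 113 also fell in aglaiacized cells (43.8%, where the share over all tested models was 59.3%). Their medians were −1.21 (naive) and −0.39 (aglaiacized). For 144 of them (55.8%) the difference was called higher, against 30.8% of all tested models that fell in naive cells, and for 0 lower (against 0.151%). Of the 146 that rose in naive cells, 113 also rose in aglaiacized cells (77.4%, against 64.7% over all). Their medians were close, at 0.94 and 0.81, and the difference was called higher for 5 (3.42%, against 0.228%) and lower for 35 (24.0%, against 41.4%). Models picked by their naive value tend to look weaker in the other line, so they were also picked by the aglaiacized value. For the 125 that fell in aglaiacized cells the naive median was −1.54 and their own −1.003, with 50 differences called higher (40.0%, against 21.3% over all) and 4 lower (3.2%, against 4.38%). The 157 that rose there had medians of 0.77 and 0.79, with 33 called in each direction (21.0%). Over all tested models that rose there, 4.54% were called higher and 36.6% lower.

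Opposite calls were few. In all, 18 giant models (3.35%, against 0.371% of all tested models) fell in naive and rose in aglaiacized cells, and 1 did the reverse (0.186%, against 0.314%). The 18 were 12 sets of near-identical models. One of length 2808, chosen after its values were seen, gave 1883 and 1921 counts in naive DMSO and 352 in RocA (90.7, 90.7 and 56.9 CPM). In aglaiacized cells it gave 1853 and 2287 counts in DMSO and 899 in RocA (80.3, 74.5 and 123 CPM). Its log2 fold changes were −0.67 ± 0.12 and 0.67 ± 0.11, and the difference was 1.34 ± 0.17 (edgeR adjusted p = 2.73e-10). The count of opposite calls depended on the processing. It was 16 with RLE factors (2.97%, against 0.282% of all tested models), 9 with total counts (1.67%, against 0.327%) and 5 with DESeq2 (0.929%, against 0.0896%). It was 8 or 10 without 1 of the naive DMSO libraries (replicate 1 or 2) and 27 or 19 without 1 of the aglaiacized ones (replicate 1 or 2). The shares over all tested models were then 0.166%, 0.173%, 0.733% and 0.506%.

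**Figure D3:**
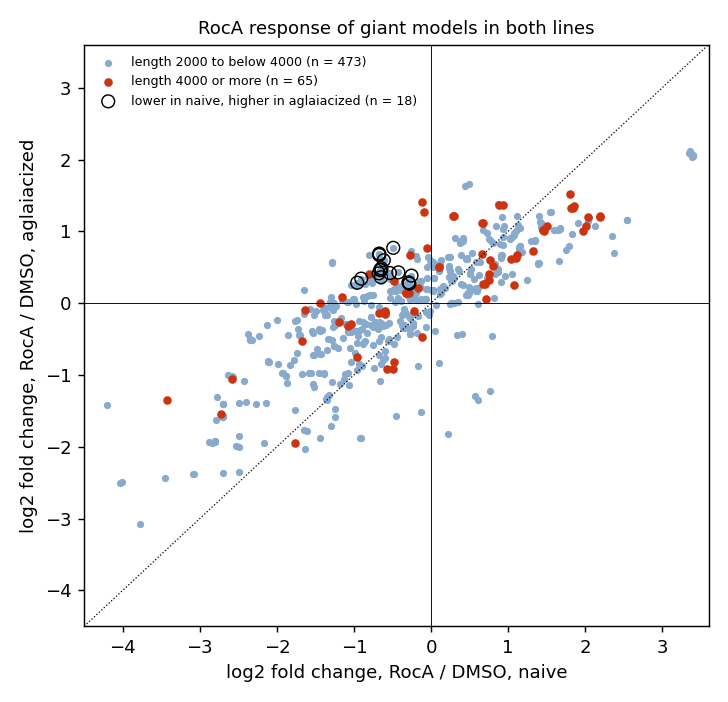
Log2 fold change of RocA over DMSO in naive (x axis) and aglaiacized cells (y axis) for 538 giant models, with the dotted line marking equal responses. Red points are models of length 4000 or more (n = 65), and rings mark the 18 models called lower in naive and higher in aglaiacized cells; 373 points lie above the dotted line.

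The models with the largest differences show how far the lines can part. That of uc003eor.3 was the largest. A model of length 4535 fell from 10.7 and 10.3 CPM to 0.970 CPM in naive cells and from 10.2 and 10.1 CPM to 3.97 CPM in aglaiacized cells, a difference of 2.08 ± 0.59. One of length 2903 was well covered and gave the firmest value. It went from 100.2 and 98.1 CPM to 19.1 CPM in naive cells, and from 102 and 95.2 CPM to 72.9 CPM in aglaiacized cells. Its log2 fold changes were −2.38 and −0.44, and the difference was 1.94 ± 0.19 (edgeR adjusted p = 1.83e-13). These models were chosen for the largest differences in this same test, so its p-value adds no support. In the other direction, 3 sparse models of length 2810, 3617 and 3544 had differences of −1.98, −1.97 and −1.87. Their counts were so alike, although their rows are apart, that they may share reads. All 3 were between 2.65 and 3.30 CPM in naive DMSO, between 4.53 and 4.69 CPM in naive RocA, between 3.16 and 4.04 CPM in aglaiacized DMSO and between 1.37 and 1.51 CPM in aglaiacized RocA.

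The giant models were not alike along their own range of length. The groups of length used here were chosen after the data were seen. Set as the median log2 fold change in naive RocA, models of 2000 to below 2500 (n = 271) gave −0.37, those of 2500 to below 3000 (n = 113) −0.65, those of 3000 to below 4000 (n = 89) −0.28 and those of 4000 or more (n = 65) 0.11. Models of 1500 to below 2000 (n = 682), below the limit, gave −0.57, lower than the group just above the limit. In aglaiacized RocA the same 4 giant groups gave −0.09, −0.17, 0.17 and 0.40. The differences of responses were 0.26, 0.46, 0.34 and 0.22, and models of 1500 to below 2000 gave 0.34, a value within the range of the giant groups. The value of 0.22 for the longest group depended on single libraries. It was 0.03 without replicate 2 of the naive DMSO libraries, and 0.36 or 0.065 without replicate 1 or 2 of the aglaiacized ones. Of the 65 longest, 30 rose (46.2%, against 32.4% of all tested models) and 18 fell (27.7%, against 33.9%) in naive cells. In aglaiacized cells 29 rose (44.6%, against 24.5%) and 8 fell (12.3%, against 24.3%).

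The naive value of this longest group depended on near-identical models. With near-identical models counted once (n = 47) the naive median was −0.09 and the aglaiacized 0.33, which is 0.01 and 0.37 above the median of all tested models, where the 65 models lay 0.21 and 0.44 above it. The naive calls were then 20 higher (42.6%, against 32.4% of all tested models) and 15 lower (31.9%, against 33.9%). The aglaiacized ones were 19 higher (40.4%, against 24.5%) and 7 lower (14.9%, against 24.3%). Under total-count scaling the 65 models had medians of −0.47 and 0.10, and the 47 had −0.67 and 0.03. Each list kept its distance from all tested models, which a change of scaling fixes in advance, since it shifts all models nearly alike. The longest models are also the most thinly occupied, with a median of 2.32 CPM per 1000 length units in naive DMSO. The count minimum also let them in at the lowest densities. The groups from 2000, 2500 and 3000 had medians of 7.82, 6.26 and 5.77. Responses by groups of density are given among the other observations.

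**Figure D4:**
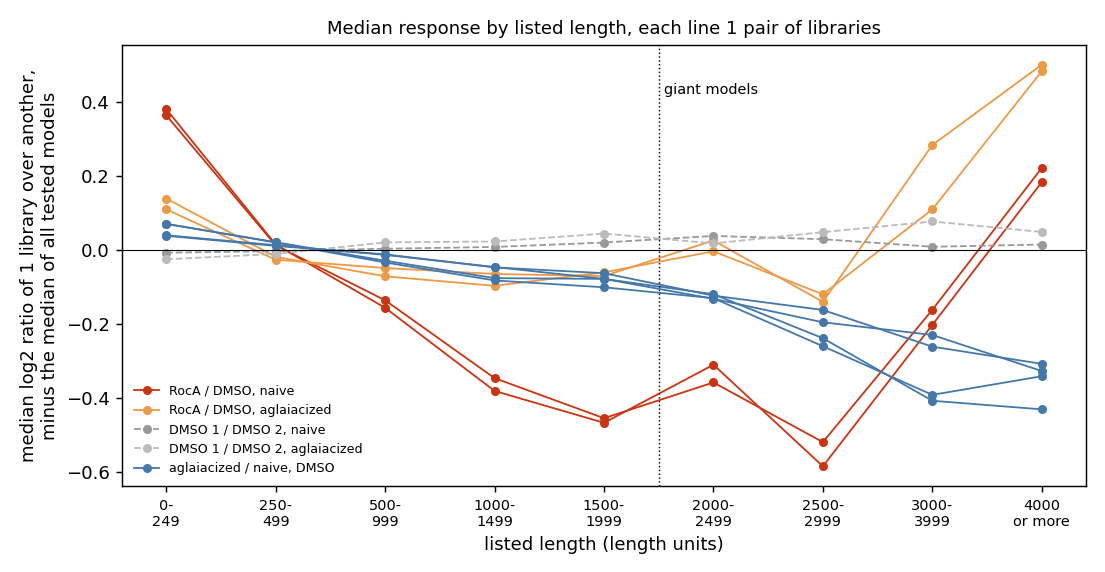
Median log2 ratio of 1 library over another, minus that of all tested models (y axis), by group of listed length (x axis); each line is 1 pair of libraries, and giant models lie right of the dotted line. The gray lines of the DMSO pairs stay near 0. The naive RocA lines (red) are lowest for length 2500 to below 3000, and the aglaiacized RocA lines (orange) are highest for 4000 or more. The lines comparing aglaiacized with naive cells in DMSO (blue) are below 0 in every giant group and, by less, in the shorter groups from 500 up.

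The 10 longest models give single cases. The model of length 14498, the longest that passed the count minimum, was at 3.52 and 3.30 CPM in naive DMSO and 14.1 CPM in RocA, and at 2.69 and 2.80 CPM and then 6.30 CPM in aglaiacized cells. It rose by 2.04 ± 0.24 and 1.19 ± 0.29 (log2; edgeR adjusted p = 2.77e-12 and 3.06e-04). A still longer row, of length 35982, had a mean count of 0.667 and is no member. A model of length 8914 rose in naive cells, from 1.11 and 0.897 CPM to 4.04 CPM, and its aglaiacized value of 1.08 ± 0.52 missed the threshold (edgeR adjusted p = 0.0749). That of length 8788 rose in naive cells (0.66) and in aglaiacized cells (1.11). At length 6898 the rise passed in aglaiacized cells (1.22) and missed the threshold in naive cells (0.29), and the difference of 0.93 ± 0.32 passed its own test (adjusted p = 0.0230, edgeR).

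The other 6 of the 10 went different ways. Length 6297 passed in neither line (−0.29 and 0.14). That of length 5881 fell in naive cells, from 20.8 and 17.7 CPM to 10.996 CPM, and stood at 6.41, 8.18 and 9.72 CPM in aglaiacized cells, a difference of 1.21 ± 0.31. Footprints of the model of length 5587 were level in naive cells (58.1, 54.4 and 54.0 CPM) and rose in aglaiacized cells (54.6, 51.6 and 90.4 CPM), with a difference of 0.83 ± 0.17. That of length 5528 fell alike in the lines, by values of −1.77 ± 0.21 and −1.95 ± 0.19. The difference of −0.18 ± 0.31 missed the threshold, which does not show that the responses are equal. A model of length 5786 rose in both lines (0.94 and 1.37). That of length 5626 fell in naive cells (−1.68 ± 0.54), on 60, 71 and 6 counts.

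Of the 5 giant models with most footprints per length unit, 4 rose in both lines. This does not hold for dense giant models at large. Among the 180 densest by the other line's DMSO libraries, 53 rose and 97 fell in naive cells, and 62 rose and 49 fell in aglaiacized cells. Over all tested models 32.4% rose and 33.9% fell in naive cells, and 24.5% rose and 24.3% fell in aglaiacized cells. The densest, of length 2502, stood at 576 and 520 CPM in naive DMSO and 657 CPM in RocA, and at 649, 769 and 931 CPM in aglaiacized cells. That of length 2326 rose by nearly the same amount in each line (0.58 and 0.57), with a difference of −0.01 ± 0.13. That of length 2417 rose by 0.24 and 0.64. The model of length 4118, which dominates the longest group, went from 501 and 495 CPM to 1360 CPM in naive cells and from 478 and 452 CPM to 942 CPM in aglaiacized cells, or 1.45 ± 0.08 and 1.02 ± 0.08. The fifth, of length 2743, was the exception and fell from 233 and 217 CPM to 115 CPM in naive cells and from 235 and 256 CPM to 188 CPM in aglaiacized cells. Its log2 fold changes were −0.97 and −0.38, and their difference was 0.59 ± 0.15.

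**Figure D5:**
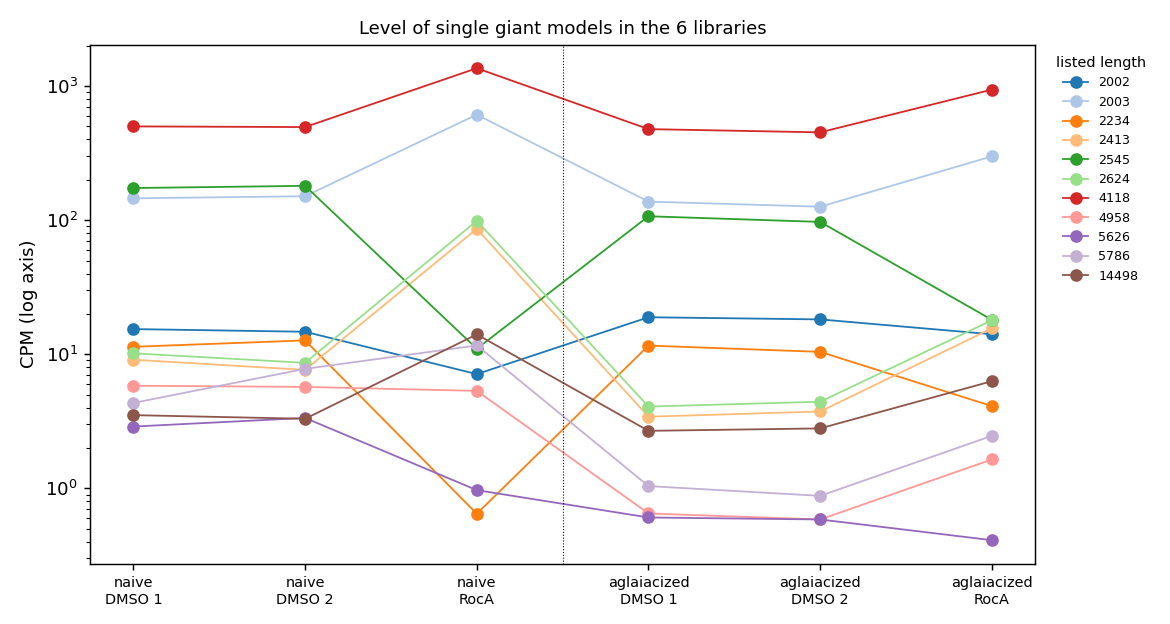
CPM (y axis, log scale) of 11 single giant models, labelled by listed length, in the 6 libraries (x axis), with 1 point per library. The models of length 2413 and 2624 peak in naive RocA, those of 2234 and 2545 drop there, and those of 4958, 5626 and 5786 lie lower in all aglaiacized libraries than in the naive DMSO ones.

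The models just inside the length limit, at 2002 and 2003, had naive log2 fold changes of −1.08 and 2.05, and those just outside, of length 1999 and 1998, had −1.17 and −0.12.

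Before any RocA, giant models were lower in the aglaiacized line. In DMSO the same edgeR test called 201 giant models lower (37.4%) and 45 higher (8.36%) in aglaiacized than in naive cells, where 16.6% of all tested models were lower and 19.0% higher. Called in either direction were 45.7% of giant models and 35.6% of all. The median was −0.21 for giant models and 0.01 for all tested models. Falls of at least 2-fold were called for 22 giant models (4.09%, against 1.72% of all) and rises of that size for 0 (against 0.663%). The 4 pairings of single DMSO libraries gave giant medians between −0.24 and −0.17. By length the medians were −0.16, −0.24, −0.30 and −0.36 for the groups from 2000, 2500, 3000 and 4000. Shorter models from 500, 1000 and 1500 gave −0.02, −0.05 and −0.08, below 0 as well. Of the 65 longest, 33 were lower and 2 higher. The number called depended on the libraries and the tool. With DESeq2 it was 106 (19.7%, against 11.5% of all) in place of 246. Fewer models were called without a naive DMSO library, giant and all tested alike. The giant median was then −0.197 or −0.216 (without replicate 1 or 2). Without replicate 1 or 2 of the aglaiacized DMSO libraries it was −0.24 or −0.19.

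The largest such gaps were in long models. That of length 4958 gave 121 and 121 counts in naive DMSO and 15 and 18 in aglaiacized DMSO, with 33 and 12 counts in the RocA libraries. In CPM this is 5.83, 5.71 and 5.34 in naive and 0.650, 0.586 and 1.64 in aglaiacized cells, a log2 fold change in DMSO of −3.22 ± 0.25 (edgeR adjusted p = 2.91e-20). Next came length 5786, at 4.34 and 7.79 CPM against 1.04 and 0.880 CPM (−2.67 ± 0.24). That of length 5626 stood at 2.89 and 3.35 CPM against 0.607 and 0.586 CPM (−2.38 ± 0.29). The naive and aglaiacized DMSO libraries did not overlap for any of these 3. This adds no support, since the models were chosen for the largest gaps between those same libraries. The largest rises were smaller. The model of length 4177 rose by 0.85 ± 0.15, from 6.02 and 5.33 CPM to 9.71 and 10.7 CPM. Those of length 3303 (0.999 ± 0.26) and 2054 (0.93 ± 0.23) were sparse. The first did not pass without replicate 2 of the naive DMSO libraries (0.64, edgeR adjusted p = 0.167), nor the second with libraries thinned to equal depth (0.55, edgeR adjusted p = 0.244).

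The medians were also set beside those of shorter models of like mean count. In naive RocA giant models had medians of −0.34, −0.60, −0.35 and −0.27 in the groups from 20, 100, 300 and 1000 counts, and models below the length limit had −0.22, −0.17, 0.07 and 0.31. In aglaiacized RocA the giant medians were −0.12, −0.06, 0.14 and 0.19 against −0.18, −0.10, 0.10 and 0.31, above shorter models in the first 3 groups and below them in the last. For the difference of responses the giant medians were 0.13, 0.41, 0.33 and 0.43 against −0.02, 0.02, 0.00 and −0.04. For the lines in DMSO they were −0.29, −0.24, −0.19 and −0.10 against −0.04, 0.02, 0.03 and 0.04. In each of the 4 groups giant models lay below the pooled shorter models in naive RocA and in the aglaiacized line in DMSO. For the difference they lay above them. Not matched on count, giant models had a naive median of −0.36. Models of 1000 to below 1500 and of 1500 to below 2000 had −0.44 and −0.57. Their medians were 0.23 and 0.34 for the difference (giant 0.33) and −0.05 and −0.08 for the lines in DMSO (giant −0.21).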

How the data were processed

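The authors deposited, per sample, a list of gene models with a length and a footprint count. The submitters' processing notes name hg19, CASAVA 1.8, Bowtie2 2.1.0 and TopHat2 2.0.9. How reads shared between models were counted is not given in the sources used here. Rows with identical counts in all 6 libraries were merged, keeping the longest length, and models averaging 20 counts or more were tested. edgeR 4.0.16 (R 4.3.3) fitted all 6 libraries as 4 groups by quasi-likelihood, with TMM factors and 2 residual degrees of freedom. P-values were adjusted over all tested models by Benjamini-Hochberg, with a threshold of 0.05. DESeq2 1.42.0 was an alternative. CPM used TMM-scaled library sizes. DMSO replicates of the same number did not deviate together (r = −0.05), so the fit has no block.

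Models named by length are the 10 longest, the 5 densest in DMSO, and the 3 with the largest called difference in each direction between responses and between lines. By identifier, the 2 largest called rises and 2 largest called falls in naive RocA are named (mean count of at least 50, no overlap between the libraries compared). The 2 on each side of the length limit are described without a test. Near-identical models were named once. Members and lists were chosen with earlier results of these data known.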

Additional observations from a re-analysis of the deposited data

Results flagged for a closer look

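The RocA response differed between the lines, by the test of the difference itself (edgeR adjusted p under 0.05), for 198 giant models. Among the models named above, the difference (aglaiacized minus naive, log2) was above 0 for uc003eor.3 (2.79) and uc004dfc.3 (1.51) and, by length, for 4535 (2.08), 2903 (1.94), 5881 (1.21), 6898 (0.93), 5587 (0.83), 2743 (0.59) and 2417 (0.40). It was below 0 for uc010hne.2 (−1.33), uc003djl.2 (−1.25) and, by length, for 2810 (−1.98), 3617 (−1.97), 3544 (−1.87), 2003 (−0.86) and 4118 (−0.43). Each of these rests on 1 RocA library per line.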

How the results depend on the processing

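Each RocA group has 1 library, so no result has a replicate of RocA, and models in the RocA libraries with few counts are the least certain. Medians moved with the scaling. For RocA in naive cells the giant median was −0.27 with RLE factors, −0.94 with total counts, −0.43 with no count filter, −0.41 from 100 counts, −0.34 with near-identical models once, and −0.46 and −0.15 with length limits of 1500 and 3000. For RocA in aglaiacized cells it was 0.091 (RLE), −0.25 (total counts), −0.011 (no filter), 0.026 (from 100 counts), −0.035 (1500) and 0.20 (3000). The difference was 0.28 (RLE), 0.61 (total counts), 0.37 (from 100 counts) and 0.28 (near-identical once), and the lines in DMSO gave −0.28 (total counts), −0.15 (1500) and −0.34 (3000). Why they moved was not tested, beyond the models and scaling each setting changes by construction.

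The number of calls moved with the members. With near-identical models once it was 266 of 364 for RocA in naive cells (73.1%, against 66.3% of all tested models). For the difference it was 126 (34.6%, against 25.6%). With a limit of 1500 (1220 models) it was 881 (naive, 72.2%), 632 (aglaiacized, 51.8%), 392 (difference, 32.1%) and 499 (lines, 40.9%). With 3000 (154 models) it was 107 (69.5%), 78 (50.6%), 61 (39.6%) and 89 (57.8%). Over all tested models the shares called were 66.3%, 48.9%, 25.6% and 35.6%. DESeq2 called 98 differences and 106 line differences, with 85 models of each given no p. Leaving out each DMSO library in turn gave 341 to 416 calls (naive), 254 to 311 (aglaiacized), 138 to 245 (difference) and 124 to 316 (lines), and medians of −0.38 to −0.36 (naive) and 0.03 to 0.07 (aglaiacized). With the replicate number as a block, 242 line differences were called (45.0%, against 33.9% of all), 40 higher and 202 lower. Of these, 240 were shared with the fit without a block. No other contrast can be paired, since RocA has 1 library a line.

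Shares of counts over all deposited rows were 1.84%, 1.81% and 1.43% (naive DMSO, DMSO, RocA) and 1.62%, 1.61% and 1.55% (aglaiacized). Over models of at least 20 counts they were 2.07% and 2.04% in naive DMSO and 1.801% in the second aglaiacized DMSO library. With near-identical models once they were 1.30%, 1.29% and 1.04%, then 1.18%, 1.17% and 1.15%.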

Other observations

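The giant models were also divided by density into 3 groups of nearly equal size, using DMSO counts per length unit in the other line, so that density and response share no library. The median response to RocA in naive cells was −0.27 in the low, −0.65 in the middle and −0.34 in the high group (179, 179 and 180 models). In aglaiacized cells the values were 0.01, 0.05 and 0.07. Among models of length 2000 to below 3000 the naive medians were −0.35, −0.67 and −0.36. Models of length 4000 or more lay mostly in the low group (46 of 65), where their naive median was 0.01, with 19 higher and 12 lower. Over all tested models 32.4% were higher and 33.9% lower. The 12 in the middle group had a naive median of 0.32, and the 7 in the high group 1.45. The naive median thus had no steady order over the density groups. In each group it was higher for the longest models than for those below 3000. Near-identical models were not counted once here, and the value of 1.45 is that of the model of length 4118. Counted once, the longest models lay 0.01 above the median of all tested models in naive cells, against 0.21 for all 65.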
